A study of Mus musculus with 10 samples.

Results

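The fibroblast regions that persisted through day 9 were 788 stretches of open chromatin with a peak in every library of fibroblasts and of reprogramming cells and in no library of embryonic stem cells. They were chosen from an atlas of 208851 regions made by merging the overlapping peaks of all 10 peak lists. Any overlap with a peak, of 1 bp or more, put a region in that list. A region was a member if both lists of fibroblasts (MEF) and both lists of day 3, day 6 and day 9 (DAY3, DAY6, DAY9) held it and neither list of embryonic stem cells (ESC) did. Presence and absence of peaks thus chose the members, and what follows describes them without testing that choice.

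The libraries were made by ATAC-seq, in which a transposase inserts sequencing adapters into accessible DNA, with 2 libraries at each of 5 stages. The MEF, DAY3, DAY6 and DAY9 cells had the strain C57BL/6 x 129 and carried a polycistronic cassette of Oct4, Klf4, Sox2 and Myc (OKSM) in the Col1a1 locus, and the activator M2rtTA in ROSA26. MEF were grown without doxycycline and DAY3, DAY6 and DAY9 cells in ESC medium with doxycycline at 1 ug/ml and ascorbic acid at 50 ug/ml, for 3, 6 and 9 days. MEF and DAY3 cells were unsorted, whereas DAY6 and DAY9 cells were sorted for SSEA1. Day and sorting therefore cannot be told apart in any comparison of DAY6 or DAY9 with MEF or DAY3. ESC were the line V6.5, of the same mixed strain, without the cassette or doxycycline and unsorted, and were grown on irradiated feeder cells, whose part in the ESC libraries was not tested. The series design calls the libraries biological replicates and does not tie them to animals or cultures.

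Reprogramming to pluripotency requires the closing of regulatory DNA that keeps a fibroblast a fibroblast and the opening of the DNA that serves pluripotency genes. Accessible regions away from promoters are often enhancers, bound in fibroblasts by factors such as AP-1, Tead and Runx, and many of them close early once the factors are expressed. Accessibility here is a property of a population of cells, and fewer cells with an open site cannot be told apart from less opening in each cell.

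The sequences shown are of 2 kinds, since members lay beside microRNA hairpins and over promoters. Mature microRNAs of hairpins near members are given first, 5′ to 3′, from RefSeq with the build GRCm38.p6, with the seed (bases 2 to 8) in capitals. They were chosen after the positions of the members were known.
mmu-miR-125b-5p: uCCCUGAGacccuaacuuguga
mmu-miR-100-5p: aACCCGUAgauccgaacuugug
mmu-miR-199a-5p: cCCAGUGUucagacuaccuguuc
mmu-miR-199a-3p: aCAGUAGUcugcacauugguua
mmu-miR-214-3p: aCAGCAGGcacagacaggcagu
mmu-miR-497a-5p: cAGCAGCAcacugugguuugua
mmu-miR-195a-5p: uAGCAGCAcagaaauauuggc
mmu-miR-221-3p: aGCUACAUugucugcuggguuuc
mmu-miR-222-3p: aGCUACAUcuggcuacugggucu
The seed AGCAGCA is shared by miR-497a-5p and miR-195a-5p, and the seed GCUACAU by miR-221-3p and miR-222-3p, so members near these hairpins lay beside pairs with one seed. The other 5 have 5 different seeds.

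The second set is the 250 bases before the start of 4 genes whose promoter lay inside a member, from RefSeq with the build GRCm38.p6, read along the gene's own strand. They were chosen after the values were seen, to show genes of the TGF-beta, collagen and actin lists described further on and a promoter with an AP-1 match. Capitals mark matches, on either strand, to the letters TGANTCA (AP-1), GGAATG (Tead), TGTGGT (Runx), ATGCAAA (octamer core), ACAATGG (Sox), GGGTGTG (Klf) and CAGCTG (E-box). The Acta2 promoter is chr19:34255374-34255623 (minus strand), that of Ltbp1 chr17:75178531-75178780 (plus), that of Col16a1 chr4:130047590-130047839 (plus) and that of Il1rn chr2:24336610-24336859 (plus).
Acta2: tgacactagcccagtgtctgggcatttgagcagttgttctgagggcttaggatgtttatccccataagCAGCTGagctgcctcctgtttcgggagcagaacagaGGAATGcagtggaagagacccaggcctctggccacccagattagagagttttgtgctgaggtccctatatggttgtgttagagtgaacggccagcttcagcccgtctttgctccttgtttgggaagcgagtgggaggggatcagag
Ltbp1: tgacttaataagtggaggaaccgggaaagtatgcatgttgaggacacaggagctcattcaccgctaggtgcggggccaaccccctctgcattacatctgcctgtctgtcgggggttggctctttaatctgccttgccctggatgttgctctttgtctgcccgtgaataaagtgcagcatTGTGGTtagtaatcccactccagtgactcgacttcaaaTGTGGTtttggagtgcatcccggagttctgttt
Col16a1: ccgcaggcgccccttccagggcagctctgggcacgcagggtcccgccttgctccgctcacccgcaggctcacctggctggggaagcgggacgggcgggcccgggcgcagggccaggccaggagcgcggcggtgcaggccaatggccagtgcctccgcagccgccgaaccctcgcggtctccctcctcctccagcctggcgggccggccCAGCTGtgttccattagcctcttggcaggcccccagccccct
Il1rn: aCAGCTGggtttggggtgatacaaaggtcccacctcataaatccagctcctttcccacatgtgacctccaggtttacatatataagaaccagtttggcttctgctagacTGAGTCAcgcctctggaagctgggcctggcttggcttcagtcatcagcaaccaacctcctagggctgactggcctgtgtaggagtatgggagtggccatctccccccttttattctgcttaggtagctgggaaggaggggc
In Acta2 the E-box letters start at base 69 and the Tead letters at base 105, in Ltbp1 the Runx letters start at bases 180 and 218, in Col16a1 the E-box letters start at base 209, and in Il1rn the E-box letters start at base 2 and the AP-1 letters at base 110. A match is a description of the letters and not of binding.

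Few fibroblast regions met the rule. Of 46089 regions with a peak in both MEF lists, 23262 had none in either ESC list, and 788 of these, 3.39%, persisted through DAY9 (1.71% of the 46089). By contrast 17371 regions were in both MEF lists and in no other list, 824 in both MEF and both DAY3 lists only, and 298 in both lists of MEF, DAY3 and DAY6 only. Regions in all 10 lists numbered 15359. The set in between, with peaks at DAY3, DAY6 and DAY9 but in neither MEF nor ESC, held 3520 regions. The persisting set was thus close in size to the set lost after DAY3 and larger than the set lost after DAY6.

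The lists differed in length and depth, which bears on who is a member. They held 45497 to 88980 peaks, with the fewest at DAY3, and no −log10 p-value lay under 5, so 5 is the threshold of a peak. The background pileup, the commonest expected read depth recovered from the deposited fold and −log10 p, was 3.42 and 8.32 in the 2 MEF libraries, 5.30 and 5.27 at DAY3, 3.45 and 2.33 at DAY6, 7.33 and 7.37 at DAY9, and 3.48 and 5.46 in ESC. The difference between libraries of a stage relative to counting noise, which is 1 where counting alone separates them, was 1.33 at DAY3 and 1.42 at DAY9, against 3.62 at DAY6, 11.4 in MEF and 9.47 in ESC, at pileups of 100 to 200. Because the DAY3 pair and the DAY9 pair were separated by scarcely more than sampling noise, each pair is treated as 1 sample. Of 18 fibroblast marker genes, 15 had a peak within 1 kb of an end of the gene in both MEF lists, 11 did at DAY3, 10 did at DAY6, 9 did at DAY9 and 10 did in ESC. Members lay within 50 kb of 3 of these 18 genes (16.7%), Col6a1, Fbln2 and Pdgfrb, against 5.93% of all protein-coding genes. Among 10 marker genes of each other cell type, 2 immune, 2 muscle, 1 endothelial and 0 neural genes had one within 50 kb. Near fibroblast markers 4.76% of the regions in both MEF lists and neither ESC list were members, against 3.39% of all such regions. This share was 12.5% near immune, 14.3% near muscle, 3.85% near endothelial and 0% near neural markers.

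Many members were near the threshold in at least 1 list. The lowest −log10 p of a member over the 8 lists had a median of 7.37 and was below 10 in 563 members (71.4%). The 3 members nearest to the threshold all had a −log10 p of 5.00 in DAY9 replicate 2. They lay at chr4:56113125-56114301, 581 kb from its nearest gene Klf4, at chr6:55335808-55336624 over the start of Aqp1, which encodes a water channel, and at chr7:118929621-118930492 inside Iqck. Just outside were 808 regions with a peak in all 8 lists and in 1 ESC list, where the ESC peak had a median −log10 p of 9.03 and a median fold enrichment of 4.02. Of these, 435 had a peak in ESC replicate 1 alone and 373 in ESC replicate 2 alone. The weakest such ESC peaks had a −log10 p of 5.00 at a region 132 kb from Asmt and 5.01 at regions inside Ddr1 and 1.06 kb from Zfp84. A further 955 regions lacked a peak in 1 of the 8 lists and in both ESC lists, and 350 of these lacked it in MEF replicate 2, the library with the highest background pileup. Among them the strongest lay 36.9 kb from Nox3, missing in MEF replicate 1, inside Psd3, missing in DAY6 replicate 1, and 20.05 kb from Clic5, missing in MEF replicate 2. The number of members without one of the 10 libraries ranged from 844 to 1223, and it was 1223 without ESC replicate 1.

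The numbers in the peak names have gaps, so some peaks were taken out of the lists, and the rule for this is not given in the sources used here. For 445 members (56.5%) at least 1 ESC list had no number missing between the peaks on either side of the region, so that no peak had been taken out of that list there, which leaves the other ESC list unknown. For the other 343 neither ESC list was shown to be free of missing numbers there, and a removed peak cannot be told apart from no peak in either. Over all regions without an ESC peak the share with no missing number was 63.1%.

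The height of the members was then described by stage. A peak is present where the same signal passes a threshold, so the rule conditions the heights in part, and nothing here is independent of it. The authors' fold enrichment of a peak over its local background depends on the depth of its list. Each member was therefore placed, list by list, among the folds of 5481 regions that had a peak in all 10 lists and lay over 1 kb from the ends of protein-coding genes, and the percentile of fold is the percent of these reference regions with a lower fold. The median member had a percentile of 36.3 and 35.4 in the 2 MEF lists, 52.2 and 52.6 at DAY3, 32.8 and 30.4 at DAY6, and 15.8 and 15.6 at DAY9. The median member was thus as high as the median reference region at DAY3 and below most reference regions at DAY9. In fold enrichment itself the median member had 6.81 and 3.97 in MEF, 5.90 and 6.00 at DAY3, 6.51 and 6.31 at DAY6, and 4.68 and 4.67 at DAY9. The median reference region had 8.10 and 4.71, 5.75 and 5.81, 8.07 and 8.10, and 7.97 and 7.95 in the same order. The DAY9 lists were the lowest in percentile, whereas in fold MEF replicate 2 was the lowest. Behind these values were median summit pileups of 26 to 46 reads at members, lowest in DAY6 replicate 2.

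**Figure D1:**
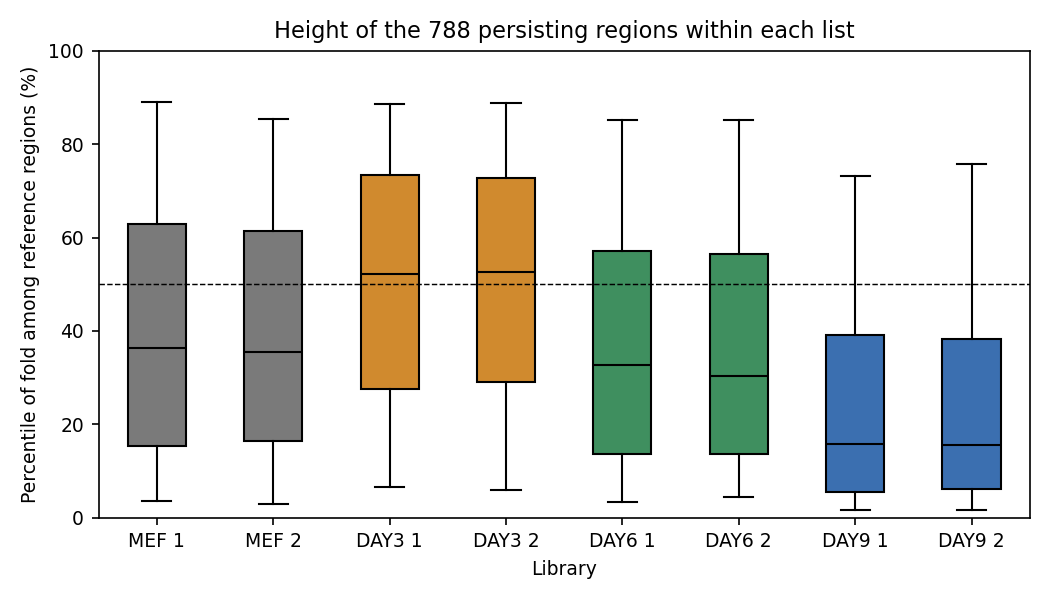
Percentile of fold of the 788 persisting regions in each of the 8 lists (y axis, percent of reference regions in the same list with a lower fold; x axis, library). Boxes span the quartiles, the line is the median, whiskers reach the 5th and 95th percentiles and the dashed line marks the median reference region. The DAY3 boxes centre on the dashed line, with medians of 52.2 and 52.6, and the DAY9 boxes lie lowest, with medians of 15.8 and 15.6.

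In the 2 MEF lists, members were not the highest of the regions that ESC lacked. Regions in MEF and DAY3 only had a median percentile of 52.3 and 52.3 in MEF, and regions in MEF, DAY3 and DAY6 only had 52.1 and 51.7, both above the 36.3 and 35.4 of members. At DAY3 the order was the other way, with 18.7 and 17.1 for regions in MEF and DAY3 only, 44.4 and 39.0 for regions in MEF, DAY3 and DAY6 only, and 52.2 and 52.6 for members. Regions in MEF only had 24.0 and 30.4 in the 2 MEF lists. The stages in which each set had to have peaks were fixed by its rule, so these orders describe the sets.

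Members changed unequally from stage to stage. A member was called lower, or higher, when both libraries of the later stage lay below, or above, both of the earlier stage in percentile. At DAY9 against MEF, 424 members (53.8%) were lower, 160 (20.3%) were higher and the libraries of 204 overlapped. Among all 16955 regions with a peak in the 8 lists, 29.2% were lower and 31.2% were higher. Of these regions 15359 had a peak in all 10 lists, ESC included, so they differ from members by the rule itself. The share of higher members was 32.4% without MEF replicate 1 and 33.4% without MEF replicate 2, when 1 MEF library has to be passed in place of 2, and the share of lower members was then 58.1% and 57.2%. The shares over all regions were not recomputed without a library, so the 29.2% and 31.2% are not their counterparts. Because the DAY9 pair counts as 1 sample, the calls set 1 sample against 2, and no p-value is given.

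In percentile, the step at DAY3 had the opposite direction to the later steps. At DAY3 against MEF 335 members (42.5%) were higher and 153 (19.4%) were lower, where all regions in the 8 lists gave 23.9% higher and 24.2% lower. At DAY6 against DAY3 392 (49.7%) were lower and 88 (11.2%) higher, against 27.1% and 20.4%. At DAY9 against DAY6 400 (50.8%) were lower and 81 (10.3%) higher, against 18.3% and 28.6%. DAY9 against DAY3 gave 559 lower members (70.9%) and 71 higher members (9.01%), against 29.2% and 33.5%. The DAY3 and DAY9 pairs count as 1 sample each, so DAY9 against DAY3 sets 1 sample against 1 with no replicate check, and the other steps set 1 sample against 2 libraries. Comparisons that share a stage share its libraries and are not independent of each other.

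Over the stage means, DAY3 was the highest stage in 372 members, MEF in 252, DAY6 in 103 and DAY9 in 61. DAY9 was the lowest stage in 446 members and MEF in 201. In 307 members (39.0%) the mean percentile was higher at DAY3 than in MEF and then lower at each later stage, an order that 11.3% of all regions in the 8 lists had. In 141 members (17.9%) it was lower at each successive stage, against 7.84%, and in 24 members (3.05%) it was higher at each successive stage, against 9.57%. In mean percentile, a maximum at DAY3 followed by a fall was thus more frequent among members than a decline from MEF onward. In fold the median member had 5.90 and 6.00 at DAY3 and 6.51 and 6.31 at DAY6. The median reference region had 5.75 and 5.81, then 8.07 and 8.10. These orders take no account of overlap between libraries and were not recomputed under the alternatives. Only 27 members had a percentile of at least 50 in every one of the 8 lists.

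**Figure D2:**
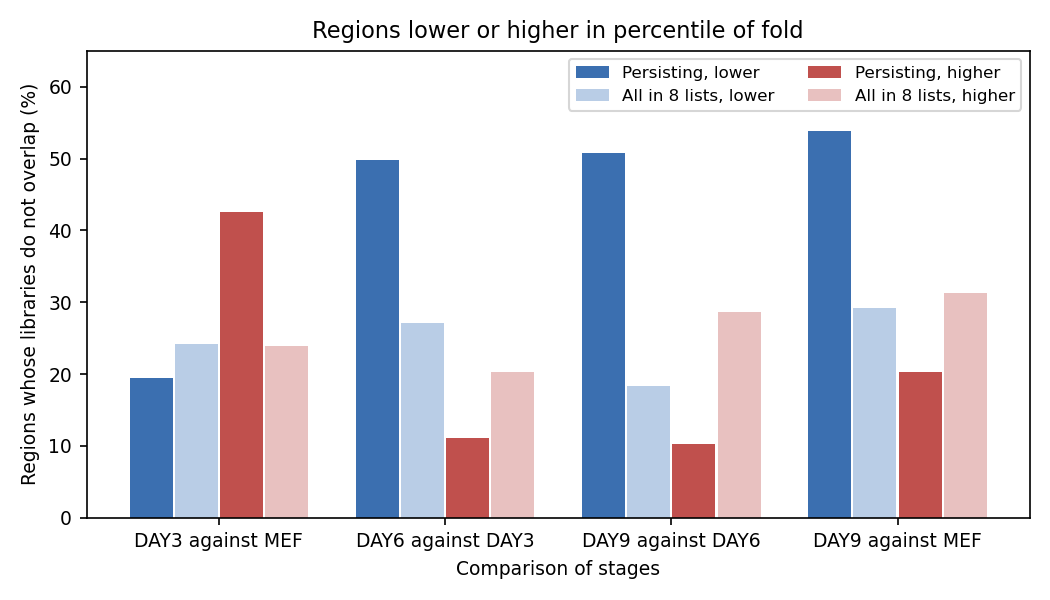
Share of regions (y axis, percent) whose 2 libraries at the later stage both lay below (blue) or above (red) both libraries of the earlier stage in percentile of fold, for 4 comparisons of stages (x axis). Dark bars are the 788 persisting regions and pale bars all 16955 regions with a peak in the 8 lists. The dark red bar is the taller of the dark bars at DAY3 against MEF (42.5%), and the dark blue bar is the taller in the other 3 comparisons (49.7%, 50.8% and 53.8%).

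The 10 members that stayed highest throughout, by their lowest percentile over the 8 lists, were inside a gene in 8 cases. The first was chr2:141278987-141279945 inside Macrod2, which encodes an enzyme that removes ADP-ribose from proteins. Its fold was 13 and 8.49 in MEF, 10.1 and 9.58 at DAY3, 15.0 and 16.1 at DAY6, and 15.6 and 15.6 at DAY9, which are percentiles of 84.2 or more in each list. The second was chr14:17917536-17918682 inside Thrb, the gene of thyroid hormone receptor beta, with folds of 11.2 and 8.53 in MEF, 13.2 and 13.7 at DAY3, 15.5 and 15.9 at DAY6, and 14.7 and 14.7 at DAY9. In both regions the DAY9 libraries lay above the MEF libraries in percentile. The third, at chr12:76593510-76594618 inside Sptb, the gene of erythroid beta spectrin, had folds of 11.8 and 7.37, 8.67 and 9.10, 11.9 and 12.5, and 11.3 and 11.4 in the same order, and its lowest percentile was 74.4. Its percentiles of 74.4 and 75.3 at DAY9 were below those of 79.2 and 80.4 in MEF, by little.

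The other 7 lay inside Txndc16, 13.7 kb from Atp10a, inside Etv1, 171 kb from Ptbp2, inside Gphn, inside Cdh18 and inside Borcs5, with lowest percentiles from 61.8 (Borcs5) to 73.4 (Txndc16). Atp10a encodes a phospholipid flippase, Etv1 an ETS transcription factor, Ptbp2 a splicing regulator of neurons, Gphn the synaptic scaffold gephyrin, Cdh18 a cadherin and Borcs5 a subunit of the complex that positions lysosomes. The weakest list of these 10 members varied. By −log10 p it was MEF replicate 2 in 7 of them, where the lowest value was 27.7, at Cdh18, DAY6 replicate 1 for Txndc16, DAY6 replicate 2 for Etv1, and DAY3 replicate 2 for Macrod2.

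The largest differences between MEF and DAY9 went both ways. The 5 lowest at DAY9 relative to MEF were led by chr3:36449154-36450628 inside Anxa5, the gene of the phospholipid-binding protein annexin A5. Its fold was 16.6 and 11.8 in MEF, 8.28 and 9.41 at DAY3, 7.71 and 3.91 at DAY6, and 3.00 and 3.34 at DAY9, and its mean percentile was 94.8 in MEF and 3.76 at DAY9. Both MEF libraries were the highest and both DAY9 libraries the lowest. The region inside Nckap5 (chr1:126817293-126818490) had folds of 13.9 and 12, 7.76 and 7.14, 5.39 and 6.01, and 2.88 and 2.99 in the same order. It was lower at each successive stage with no overlap of libraries between neighbouring stages. The region 149 kb from Fer, a cytoplasmic tyrosine kinase, (chr17:63712272-63713458) had folds of 15.5 and 8.62 in MEF, 13.8 and 13.1 at DAY3, 10.0 and 8.85 at DAY6, and 2.76 and 3.82 at DAY9. Its mean percentile was highest at DAY3, at 94.7, and its lowest −log10 p, 5.55, was at DAY9. The other 2 lay 235 kb from Gm826 and inside Iqck, with mean percentiles of 94.5 and 91.4 in MEF and of 4.16 and 2.88 at DAY9.

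The 5 highest at DAY9 relative to MEF were led by chr6:96138783-96139647 inside Tafa1, which encodes a secreted chemokine-like protein. Its fold was 4.76 and 3.00 in MEF, 4.92 and 4.78 at DAY3, 7.63 and 7.21 at DAY6, and 15.3 and 15.7 at DAY9, and only the DAY9 libraries were above the median reference region. The region inside Pcdh7, a protocadherin gene, (chr5:57756871-57758130) had folds of 5.23 and 3.13 in MEF, 8.92 and 8.98 at DAY3, 12.1 and 13 at DAY6, and 15.4 and 15.8 at DAY9. Its percentile was already 80.1 and 80.6 at DAY3. A region 538 kb from Reep3, which lies in the long noncoding RNA gene Gm40677 (chr10:66470398-66471314), had 3.40 and 4.08 in MEF, 15.1 and 10.7 at DAY3, 16.2 and 19.7 at DAY6, and 15.2 and 15.0 at DAY9. Its peak in MEF replicate 1 was close to the threshold, with a −log10 p of 5.50. The last 2 lay 1.63 kb from Gm51791 and 2.08 kb from Ms4a10, with mean percentiles of 17.2 and 10.9 in MEF and of 89.2 and 80.0 at DAY9.

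**Figure D3:**
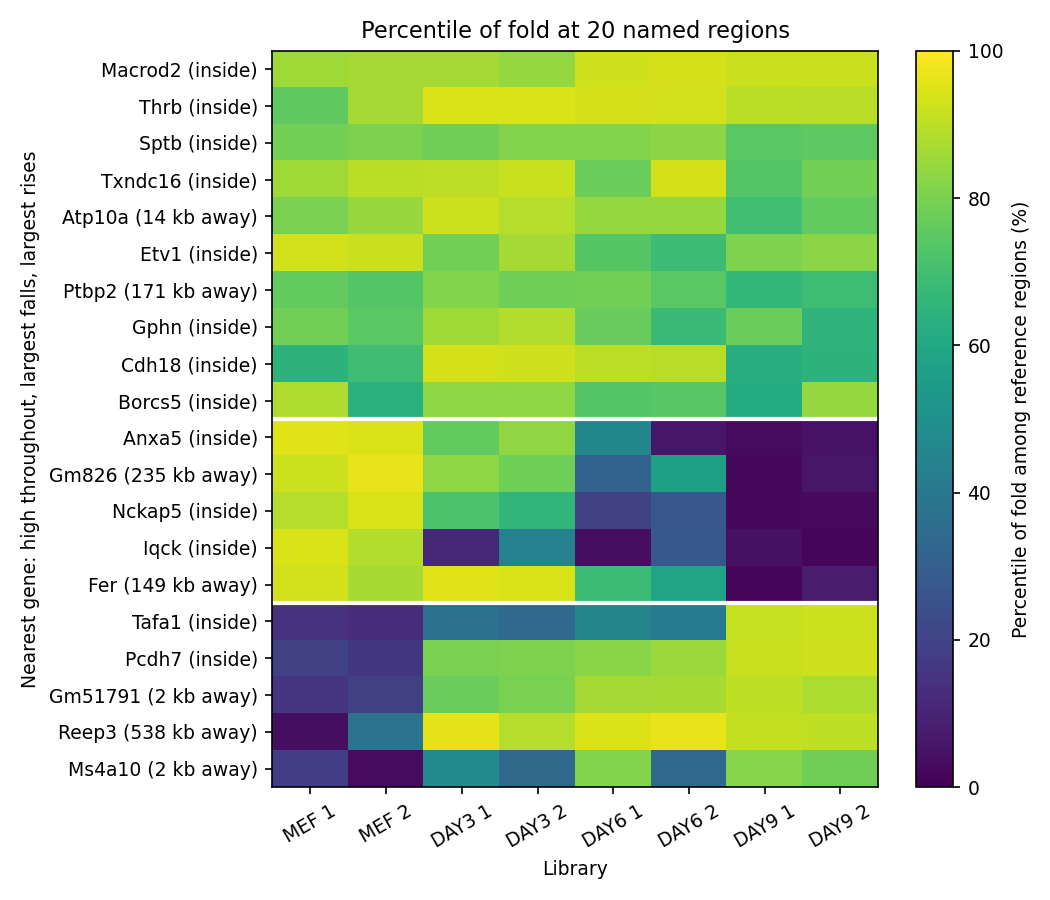
Percentile of fold (colour, percent of reference regions with a lower fold) of 20 persisting regions (rows, named by the nearest protein-coding gene and their place relative to it) in the 8 lists (columns). White lines part the 10 regions highest throughout, the 5 with the largest falls and the 5 with the largest rises from MEF to DAY9. Macrod2 is at 84.2 or more in every list, the row of Anxa5 runs from 95.1 in MEF replicate 1 to 4.77 in DAY9 replicate 2, and that of Tafa1 from 14.1 to 92.5.

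The members lay mostly away from promoters. Of 788, 67 (8.50%) were within 1 kb of an end of a protein-coding gene, 396 (50.3%) were inside a gene and further from its ends, and 325 (41.2%) were outside genes and further from their ends. Of all regions of the atlas 10.1% were within 1 kb of a gene end, as were 3.63% of the regions in both MEF lists and neither ESC list, and 64.3% of regions in all 10 lists. The gene-end share of members ranged from 7.89% to 13.2% without 1 library, and was 13.2% without ESC replicate 1. It also depended on the peaks admitted: it was 17.8% with peaks of −log10 p of 10 or more, 23.5% with the upper 50% of each list, 24.4% with an equal number of peaks from each list and 25.8% where peaks had to cover 50% of the region. Exons and introns were not analysed here. The median distance to a gene start was 24.3 kb for the 758 members on chromosomes with starts in the RefSeq promoter table, against 25.9 kb over all regions, and 111 of them (14.6%) were over 100 kb away, against 19.3%.

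**Figure D4:**
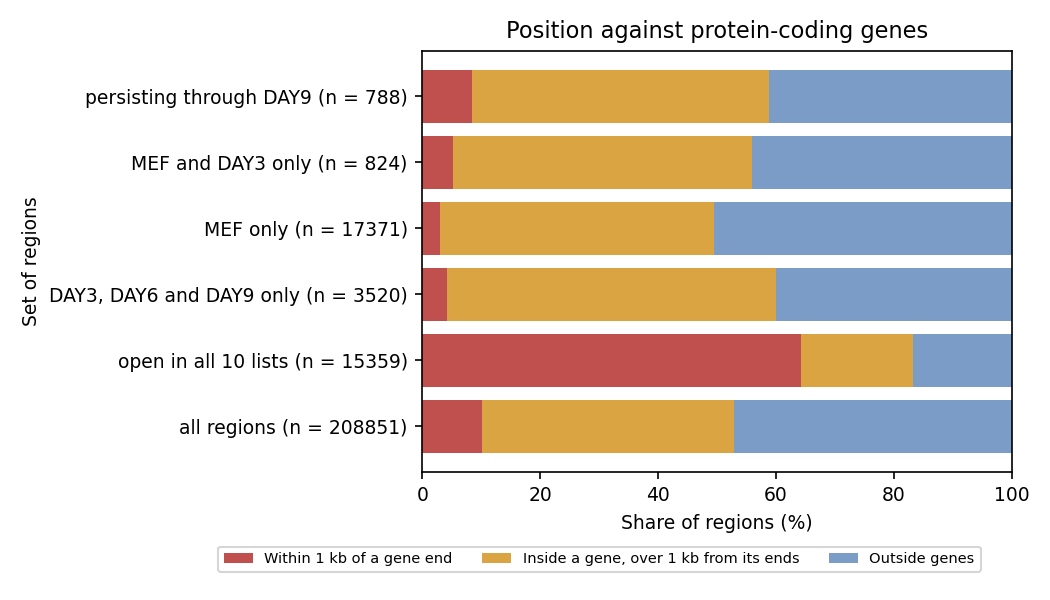
Share of regions (x axis, percent) within 1 kb of an end of a protein-coding gene (red), inside a gene and over 1 kb from its ends (yellow), and outside genes (blue), for 6 sets of regions (y axis, with their numbers). The red part is 8.50% for persisting regions, 2.96% for regions in MEF only and 64.3% for regions in all 10 lists.

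Members were wider than most regions of the atlas, but not wider than other sets found in a similar number of lists. Their median width was 940.5 bp, with quartiles of 765 and 1152 bp, against 509 bp over the atlas, 559 bp for regions in MEF only and 1156 bp for regions in all 10 lists. It was 936.5 bp for the 2634 regions in both lists of DAY3, DAY6, DAY9 and ESC and in neither MEF list. For the 808 regions with a peak in all 8 lists and in 1 ESC list it was 941 bp. A region merged from more lists has more peaks to extend it, and with windows of 500 bp around each peak's midpoint the median was 707 bp. An ESC peak lay within 1 kb of 97 members (12.3%) and within 10 kb of 515 (65.4%), with a median distance of 5.73 kb. In the set of regions in both MEF lists and neither ESC list these shares were 10.0% and 58.7%. Where peaks had to cover 50% of a region, 60.4% of the members had an ESC peak within 1 kb, since a short ESC peak over a wide region then no longer excludes it. Lower height at DAY9 than in MEF was found for 48 of the 97 members beside an ESC peak and for 145 of the 273 members with none within 10 kb, which are 49.5% and 53.1%.

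Host genes were long. The 430 protein-coding genes with a member inside had a median length of 110 kb, against 17.2 kb for all 21887 genes and 70.3 kb for the 5079 genes with any region of both MEF lists and neither ESC list inside. A long gene has more room for a region, and this was not corrected for. Dnm3, Morn1 and Aopep held 3 members each, and 27 genes held 2 or more. Dnm3 encodes a dynamin, a GTPase of membrane fission, and Aopep an aminopeptidase. Long noncoding RNA genes overlapped 97 members (12.3%), against 11.4% of all regions, and 65 of these members overlapped no protein-coding gene.

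Members were scattered along the genome. The nearest other region of both MEF lists was itself a member for 18 members (2.28%, 95% Wilson interval 1.45% to 3.58%, for counting error only), where members were 1.71% of those regions. The ratio of these shares was 1.34 for members, 1.29 for regions in MEF only, 1.30 for regions in all 10 lists and 1.56 for the regions lost after DAY3 and for those lost after DAY6. The share was 3.43% without ESC replicate 1 and 3.69% without ESC replicate 2, when members were 2.65% and 2.53% of the MEF regions. With peaks of −log10 p of 10 or more it was 3.52% against 1.60%. Over the 445 members with an ESC list free of missing numbers the direction turned, with 0.674% against 0.966%. With gaps of up to 50 kb, 721 members stood alone, and the others formed 29 pairs and 3 groups of 3. With gaps of up to 10 kb there were 7 pairs and no larger group.

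The 3 groups lay at genes of different kinds. One, at chr4:155113631-155144614, lay inside Morn1 beside Ski, a repressor of Smad factors, and is described with the TGF-beta genes. Another, at chr9:41580316-41613469, lay in Mir100hg, the noncoding host of miR-100, let-7a-2 and miR-125b-1, and its nearest protein-coding gene was Gm40514. The last, at chr11:84042808-84101882, had a member inside Synrg, whose product binds the clathrin adaptor, one 4.24 kb from Tada2a and one inside Tada2a, an adaptor of histone acetyltransferase complexes. The member inside Synrg had mean percentiles of 69.6 in MEF and 61.5 at DAY9, that inside Tada2a 37.4 and 57.1, and the one between these 11.9 and 4.46. Neighbours within a group thus differed in height and in direction. The shortest pairs spanned 1.76 kb on chromosome 16, nearest to Usp25, which encodes a deubiquitinase, and 2.36 kb inside Dnm3.

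MicroRNA hairpins near members included some that fibroblasts and other mesenchymal cells are known to express. Those described here were picked from the hairpins near members after the positions were known. Others, such as Mir129-2, Mir218-2 and Mir338, also had a member within 50 kb and are not described. Of 1005 hairpins in the table, 61 (6.07%) had a member within 50 kb and 13 (1.29%) within 10 kb. For protein-coding genes, which are longer, these shares were 5.93% and 2.82%. The share of hairpins was thus close to that of genes within 50 kb and lower within 10 kb. Hairpins also share members: those from Mir770 to Mir431 had the single member over the Meg3 promoter as their nearest. The sequences printed above are only a part of those in the table, and the abundance of the microRNAs was not measured. Mir125b-1 had all 3 members of the Mir100hg group within 50 kb, the nearest 0.399 kb away. That member (chr9:41580316-41581527) had folds of 5.96 and 2.94 in MEF, 3.72 and 3.15 at DAY3, 4.19 and 5.12 at DAY6, and 3.33 and 2.94 at DAY9, and its DAY9 libraries were below its MEF libraries in percentile. It was among the lower members throughout, with no mean percentile over 19.2. Mir100 was 48.8 kb from the same member.

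Mir214 and Mir199a-2 lie in the antisense gene Dnm3os within Dnm3, 1.25 kb and 6.81 kb from the member at chr1:162224729-162226427. This member had folds of 4.71 and 5.68 in MEF, 4.07 and 4.73 at DAY3, 4.44 and 4.73 at DAY6, and 2.64 and 3.22 at DAY9, with DAY9 lowest. Mir497 and Mir195a, the pair with the seed AGCAGCA, were 4.79 kb and 4.45 kb from the member at chr11:70239586-70240319, which had folds of 4.10 and 3.15, 2.80 and 4.64, 5.17 and 5.52, and 4.29 and 4.00 in the same order and MEF and DAY9 libraries that overlapped in percentile. It lies inside Rnasek, a ribonuclease gene, and was low in all lists. Mir221 and Mir222, the pair with the seed GCUACAU, were 20.57 kb and 19.98 kb from the member at chrX:19166955-19167690. That member was highest at DAY6, with folds of 8.61 and 8.93, against 4.49 and 3.00 in MEF, 5.47 and 5.93 at DAY3, and 4.32 and 6.09 at DAY9.

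Promoters inside members were few. Of 32851 RefSeq promoter windows, each from 250 bases before to 50 after a start, 39 (0.119%), of 35 gene symbols, lay wholly inside 34 members. Their median GC content was 58.0% and their median number of CpG dinucleotides 11, against 52.7% and 7 over all windows and 62.7% and 23 in windows inside regions open in all 10 lists. The AP-1 letters TGANTCA were in 9 of the 39 windows (23.1%), against 7.81% of all windows. The Tead letters were in 23.1% against 14.7%, the Klf letters in 17.9% against 7.95%, the E-box letters in 23.1% against 16.3%, the Runx letters in 15.4% against 16.8%, the octamer letters in 5.13% against 4.63% and the Sox letters in 2.56% against 3.66%. Windows of the same gene overlap, so the 39 are not independent. Of the 34 members 18 were lower at DAY9 than in MEF, 6 were higher and 10 overlapped, a share of lower members close to the 53.8% of all members.

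Of the 4 promoters printed above, those of Acta2, Ltbp1 and Col16a1 lay in members that were lower at DAY9 than in MEF in percentile, and that of Il1rn in one whose libraries overlapped. Acta2 encodes smooth muscle actin, the actin of myofibroblasts, and the member over its start had folds of 8.23 and 5.54 in MEF, 8.01 and 7.37 at DAY3, 7.97 and 6.39 at DAY6, and 6.75 and 7.64 at DAY9. Its percentile stayed between 31.6 and 74.1. Ltbp1 encodes a protein that anchors latent TGF-beta in the matrix, and the member over this start had folds of 11.0 and 6.64 in MEF, 8.50 and 8.24 at DAY3, 8.44 and 8.11 at DAY6, and 3.36 and 3.11 at DAY9. It stayed high until DAY6 and was near the threshold at DAY9, with percentiles of 4.53 and 3.39. The member over Col16a1, a collagen gene, was low in all lists after MEF, with folds of 6.25 and 4.08 in MEF and of 3.55 and 3.34 at DAY9. The member over Il1rn, the gene of the interleukin-1 receptor antagonist, had folds of 4.08 and 7.04 in MEF, 6.82 and 7.50 at DAY3, 4.49 and 3.91 at DAY6, and 3.24 and 5.02 at DAY9, and its MEF libraries were far apart in percentile, at 8.14 and 77.7.

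Genes of 13 lists of fibroblast, reprogramming and pluripotency genes were then looked up. The lists were chosen with earlier results of these data known. A gene was counted if a member lay in it or within 50 kb, as for 5.93% of all 21887 protein-coding genes (2.82% within 10 kb). In all, 38 genes of the lists had such a member, and these were 41 members, of which 28 were lower at DAY9 than in MEF, 5 were higher and 8 overlapped, beside 53.8% lower and 20.3% higher over all members and 29.2% and 31.2% over all regions in the 8 lists. The list gene was the nearest protein-coding gene for 23 of them. Shares of genes rise with gene length, and counted per region the order of the lists differed. Of the regions in both MEF lists and neither ESC list within 50 kb of list genes, 2.34% were members for the actin list (median gene length 55.2 kb), 2.20% for collagens (114 kb), 2.21% for growth factors (59.7 kb) and 4.05% for the extracellular matrix (57.2 kb), beside 3.39% in all. Actin, collagen and growth factor genes were thus above the share of all genes and below the share of all regions.

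**Figure D5:**
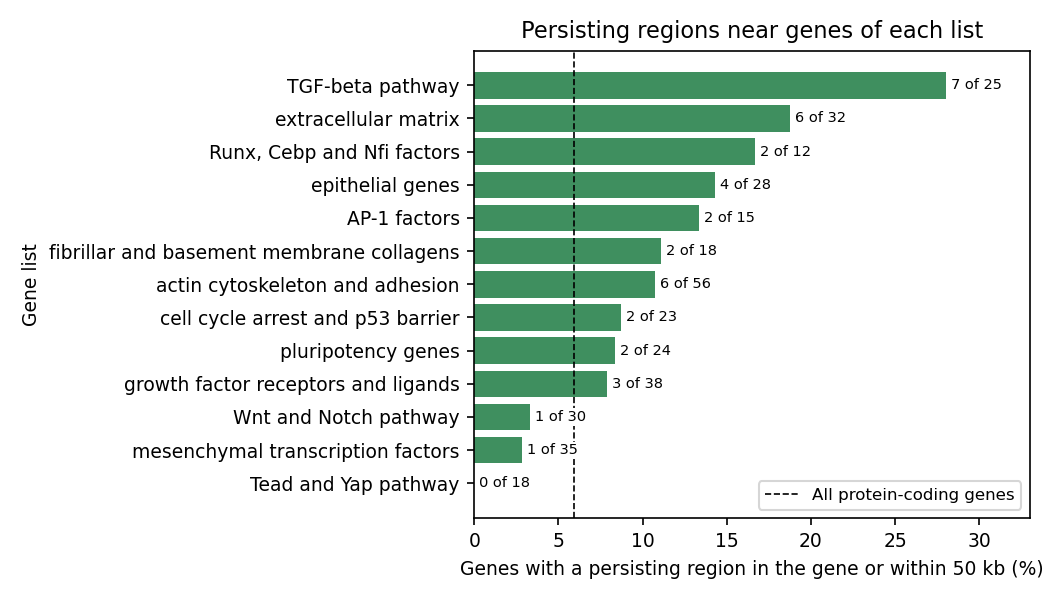
Share of the genes of 13 lists (y axis) with a persisting region in the gene or within 50 kb (x axis, percent), with the numbers of genes beside the bars. The dashed line is the share of all protein-coding genes, 5.93%. The TGF-beta list has 7 of 25 genes, and the Tead and Yap list 0 of 18.

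TGF-beta keeps fibroblasts mesenchymal, and inhibiting its receptor is known to favour reprogramming. Of 25 genes of the pathway 7 (28.0%) had a member within 50 kb and 4 within 10 kb. These genes had a median length of 61.0 kb, against 17.2 kb for all genes, which widens their windows. Of the 121 regions near them with a peak in both MEF lists and neither ESC list, 9 (7.44%) were members, against 3.39% of such regions in all. This share was higher still near pluripotency genes (2 of 20, 10.0%) and epithelial genes (4 of 46, 8.70%). It was also higher near marker genes of immune cells (2 of 16, 12.5%) and muscle (2 of 14, 14.3%), and lower for all other lists. A TGF-beta gene was the nearest protein-coding gene for 4 of the 9. Of the 9, 8 were lower at DAY9 than in MEF and 1 overlapped, where 53.8% of all members were lower. That difference was not tested.

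Among the ligands, Tgfb2 held a weak member (chr1:186702623-186703419), with folds of 3.98 and 3.20 in MEF and of 2.69 and 2.94 at DAY9. Near Tgfb3, a member 24.3 kb away inside Ift43 had folds of 10.9 and 7.57 in MEF, 6.03 and 5.64 at DAY3, 6.06 and 4.51 at DAY6, and 3.36 and 3.70 at DAY9. Its percentiles followed the order of the stages, although its folds at DAY3 and DAY6 overlapped. Of the receptors, Tgfbr3, the co-receptor betaglycan, had a member 26.1 kb away with folds of 8.23 and 5.58 in MEF and of 4.32 and 3.46 at DAY9. Acvr1, a type I receptor of bone morphogenetic proteins, had one 12.7 kb away inside Upp2, with folds of 9.03 and 4.29 in MEF and of 5.16 and 6.81 at DAY9. Its 2 DAY9 percentiles, 20.3 and 38.3, were below those of MEF, 59.1 and 42.7, although the folds overlap.

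Inhibitors of the pathway made up the rest beside Ltbp1. Smad6, an inhibitory Smad, held a member with folds of 5.41 and 4.51 in MEF and of 4.57 and 4.58 at DAY9. Ski had 3 members, all inside its neighbour Morn1, 9.46 kb, 19.4 kb and 39.6 kb away. The nearest (chr4:155143791-155144614) had folds of 13.3 and 5.90 in MEF, 7.97 and 5.41 at DAY3, 6.21 and 7.93 at DAY6, and 2.98 and 2.94 at DAY9. The middle one had its highest mean percentile at DAY6, with folds of 9.32 and 6.51, and the far one had libraries that overlapped between MEF and DAY9. The nearest gene of these members is Morn1, and which gene they serve was not measured.

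Collagens and other matrix proteins are the main secreted products of fibroblasts. Of 32 extracellular matrix genes 6 (18.8%) had one within 50 kb and 2 within 10 kb, and only Lamc1, a laminin chain, held one inside. The others were Fbn1 (fibrillin 1), Fbln2 and Fbln5 (fibulins), Lamb1 (a laminin chain) and Loxl2 (a collagen crosslinking enzyme), 9.33 kb to 45.9 kb away. The member near Loxl2 lay inside Entpd4b. The member near Fbln5, which lay inside Trip11, was high in all lists, with folds of 11.4 and 9.07 in MEF, 12.4 and 13.3 at DAY3, 10.9 and 11.4 at DAY6, and 9.41 and 8.59 at DAY9. The member near Fbn1, which was nearer to Dut, was highest at DAY3 and DAY6, with folds of 11.3 and 8.59 and of 12.7 and 8.67, against 6.25 and 3.35 in MEF and 5.76 and 6.09 at DAY9. Of 18 collagen genes 2 (11.1%) had a member within 10 kb, Col16a1 and Col6a1. That near Col6a1, 3.96 kb away, had folds of 3.33 and 2.56 in MEF, 5.34 and 5.38 at DAY3, 7.99 and 10.6 at DAY6, and 3.95 and 3.77 at DAY9, with DAY6 above all other libraries. No member lay within 50 kb of Col1a1, the locus of the cassette.

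Of 56 genes of the actin cytoskeleton and adhesion 6 (10.7%) had a member within 50 kb, Acta2, Actn1 and Lpp inside and Arhgap31, Itga2 and Cd44 16.4 kb, 22.6 kb and 41.9 kb away. Of their 6 members 5 were lower at DAY9 than in MEF, beside 53.8% of all members, and 1 of these, in Actn1, had mean percentiles of 9.82 in MEF and 8.05 at DAY9. The member inside Lpp, an adaptor of focal adhesions, had folds of 4.68 and 3.22 in MEF, 8.27 and 9.56 at DAY3, 8.76 and 5.38 at DAY6, and 2.88 and 2.75 at DAY9, and its percentiles at DAY3, 75.9 and 84.1, were the highest. The member near Cd44, a hyaluronan receptor, had 12.3 and 8.75 in MEF, 9.21 and 9.66 at DAY3, 9.37 and 10.7 at DAY6, and 6.00 and 3.70 at DAY9. It was high in every library but those of DAY9. The member near Itga2, an integrin chain, was nearer to Mocs2 and differed between the MEF libraries, with 13 and 2.68.

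Of 38 growth factor receptors and ligands 3 (7.89%) had a member, Igfbp3, Nrp1 and Pdgfrb. The member 22.1 kb from Igfbp3, which encodes a binding protein of insulin-like growth factors, had folds of 17.3 and 12.5 in MEF, 9.66 and 7.82 at DAY3, 6.51 and 5.71 at DAY6, and 4.08 and 4.42 at DAY9. It was lower at each successive stage in both libraries. The member 21.5 kb from Pdgfrb, a receptor of platelet-derived growth factor and a fibroblast marker, lay inside its neighbour Csf1r, a receptor of macrophages, so both genes share 1 member.

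Of 15 AP-1 genes 2 (13.3%) had one: Bach2 held 2, both lower at DAY9, and Fosl1 had one 40.1 kb away, with folds of 6.12 and 4.22 in MEF and of 9.89 and 12.4 at DAY9, which was higher. The member near Fosl1 lay over the start of the noncoding RNA gene 4930481A15Rik, and its nearest protein-coding gene was Tsga10ip, 3.73 kb away. Of 12 Runx, Cebp and Nfi genes Runx2 and Nfia (16.7%) held one each, and both were lower at DAY9. That in Nfia had folds of 13.4 and 4.29 in MEF, 8.52 and 10.8 at DAY3, 8.08 and 8.19 at DAY6, and 4.20 and 3.34 at DAY9. Of 35 mesenchymal transcription factors 1, Meis1 (2.86%), held a member, and of 18 genes of the Tead and Yap pathway none had one within 50 kb. Jag1 was the 1 of 30 Wnt and Notch genes (3.33%), and Bcl2l1 and Gadd45a were 2 of 23 genes of cell cycle arrest (8.70%). The nearest protein-coding genes of their members were Slx4ip, Id1 and Gng12, in this order.

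Of 24 pluripotency genes 2 (8.33%) had a member. The member 44.0 kb from Nanog lies inside Slc2a3, a glucose transporter gene, and had folds of 12.9 and 8.13 in MEF, 5.13 and 6.54 at DAY3, 3.66 and 4.73 at DAY6, and 3.45 and 3.39 at DAY9. It was thus highest in MEF. The other member (chr3:34650291-34651412) lies in the body of Sox2, with folds of 3.15 and 5.09, 5.13 and 5.39, 3.02 and 5.07, and 4.61 and 4.59 in the same order, and an ESC peak 0.087 kb away. The cassette carries Sox2 and is in all 8 libraries and not in ESC, so the gene and the cassette cannot be told apart there. Of 28 epithelial genes Krt7, Pkp1, Rab25 and Trp63 (14.3%) had one member each. Of these members 3 were lower at DAY9 than in MEF and 1 was higher, beside 53.8% lower and 20.3% higher over all members. The higher one lay 14.4 kb from Pkp1, a desmosome gene. Its folds were 6.00 and 3.33 in MEF, 7.94 and 8.10 at DAY3, 13.5 and 15.5 at DAY6, and 13.8 and 15.1 at DAY9. Of the 10 genes of each other cell type, endothelial markers had 1 gene with a member (Erg), immune markers 2 (Cd68 and Csf1r), muscle markers 2 (Ckm and Myh3) and neural markers none.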

How the data were processed

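Chromatin accessibility was measured in 10 libraries, and the authors deposited 1 peak list per library, with no read counts. Per the submitters' processing notes, Bowtie2 2.3.2, MACS2 2.1.1, deepTools 2.3.6 and the build mm10 were used; their settings are not given in the sources used here. Each deposited peak has a score, a fold enrichment (a ratio, on a linear scale, to local background) and −log10 values of p and q, all computed by the authors. The score and the q-value were not used. Summit offsets are not given in the lists, so windows were centred on peak midpoints.

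Peaks were merged (at least 1 bp of overlap) and heights ranked within each list with Python 3.11.15, numpy 2.4.6, pandas 2.3.3 and scipy 1.17.1, and drawn with matplotlib 3.10.9. Where 2 peaks of a list fell in 1 region, the highest fold was taken. Pileups were recovered from fold and −log10 p values of at most 300, with a tolerance of 0.01 in −log10 p. Genes, microRNAs and promoters came from RefSeq tables of GRCm38.p6. Motifs were searched in promoter windows, an alternative added after seeing the data, since no genome was used and member sequences were not analysed here. The merging and the calls were tested on simulated data.

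Regions were named by rule: the 10 highest by lowest percentile, the 5 largest falls and rises from MEF to DAY9 without overlap, the groups with most members (ties by span), 3 members nearest the threshold and regions just outside it, and at most 4 genes a list, here extended to all list genes with a member. The members and lists were chosen with earlier results of these data known. No test was made, since the rule used all libraries; even with every library counted, an exact permutation test of 2 against 2 cannot give a two-sided p-value below 0.333. Alternatives changed the peaks admitted, the windows, the reference and the libraries.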

Additional observations from a re-analysis of the deposited data

How the results depend on the processing

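No paired analysis was possible because no result comes from a test. Of the alternatives that kept all libraries, 31 values were labelled the same and 27 moved. The numbers of members and of list genes were judged by a fixed factor around the main value. Shares and the median width were judged by the counting interval of the main value, and the change in groups of 3 was set as moved. Replicate spread was not used. The number of members was 455 with peaks of −log10 p of 10 or more, 358 with the upper 50% of each list, 497 where peaks covered 50% of a region and 445 where no ESC peak number was missing, and 844 to 1223 without 1 library (1223 without ESC replicate 1); admitting fewer peaks or asking for fewer libraries changes this number by construction. Median width was 990 bp with an equal number of peaks per list, 988 bp with −log10 p of 10 or more, 1025 bp in the upper 50% and 707 bp with windows of 500 bp (882 to 940 bp without 1 library). The gene-end share was 24.4%, 17.8%, 23.5% and 25.8% with equal numbers, −log10 p of 10 or more, the upper 50% and 50% cover, 13.5% with 2.5 kb around gene ends, and 7.89% to 13.2% without 1 library. The share inside genes was 63.9%, 66.6%, 66.5% and 66.4% under the same 4 admissions (56.9% to 61.1% without 1 library). The share whose nearest neighbour was a member was 4.38% with equal numbers and 0.674%, against a base share of 0.966%, with no ESC peak number missing (2.14% to 3.69% without 1 library). An ESC peak within 1 kb was found for 60.4% with 50% cover (10.3% to 13.3% without 1 library). Members lower at DAY9 than in MEF were 47.2%, 48.3% and 48.3% with equal numbers, the upper 50% and 50% cover, and 58.6% against gene-end reference regions (50.7% to 61.9% without 1 library). Members higher were 16.9% against the latter (19.3% to 33.4% without 1 library). The same shares over all regions were not recomputed under these settings. Groups of 3 were 0 with gaps up to 10 kb, and list genes were 18 within 10 kb. Apart from these constructions the cause was not tested. The gene-end reference, the missing peak numbers and the promoter windows were added after seeing the data. Read depth is unknown beyond recovered pileups of 26 to 46 at members, and a missing ESC peak is an absence from a thresholded list.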

Other observations

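By chromosome, the share of regions in both MEF lists and neither ESC list that persisted through DAY9 ran from 2.33% on chromosome 14 (23 of 986) to 4.62% on chromosome 11 (59 of 1278), beside 3.39% in all. Chromosome X had 15 of 331 (4.53%) and chromosome Y 0 of 8.

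The member farthest from a protein-coding gene was chr2:46230758-46231470, 1113 kb from Zeb2, a repressor that maintains the mesenchymal state. Its fold was 6.34 and 5.69 in MEF, 5.23 and 4.94 at DAY3, 7.74 and 6.01 at DAY6, and 2.76 and 3.11 at DAY9, with the DAY9 libraries lowest. Meg3, an imprinted noncoding RNA gene, had its promoter inside a low member with folds of 4.00 and 2.80 in MEF, 4.29 and 4.40 at DAY3, 4.33 and 3.43 at DAY6, and 4.42 and 4.43 at DAY9, and this member was higher in percentile at DAY9 than in MEF. Hmga2, a chromatin architectural gene, held 2 members: at chr10:120401645-120402807 the folds were 8.33 and 4.62 in MEF and 8.13 and 8.95 at DAY9, with libraries that overlapped in percentile, and at chr10:120421887-120423404 they were 9.86 and 5.59 and 5.13 and 5.99, with DAY9 lower in percentile. These 3 loci were chosen after their values were seen.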
